A study of Mus musculus with 8 samples.

Results

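The mitochondrial ribosomal proteins were described here as every gene in the deposited table whose symbol starts with *Mrpl* or *Mrps* followed by a number. This rule gave 78 of the 16686 genes in the table, of which 49 carry an *Mrpl* symbol (large subunit) and 29 an *Mrps* symbol (small subunit). All 78 passed the filter on low counts, and the lowest count of any of these genes in any mouse was 169. RNA came from the tibialis anterior (TA) muscle, a fast-twitch muscle of the lower hindlimb, of 8 male mice aged 22 months on the FVBN background, 4 WT and 4 C2-/-, with 1 library per mouse. The C2-/- mice lack *Mybpc2*, the gene of fast skeletal myosin-binding protein C, since exons 2 to 22 were replaced by a Neo cassette flanked by LoxP sites. The deletion is a germline one, so every tissue carries it, and the WT mice carry neither the deletion nor the cassette.

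The mitochondrial ribosome translates the few mRNAs that mitochondrial DNA encodes, all of them for core subunits of the respiratory chain and the ATP synthase. Its ribosomal RNAs are transcribed from mitochondrial DNA, whereas all of its proteins are encoded in the nucleus, made on cytosolic ribosomes and imported. The small subunit binds and decodes the mRNA, and the large subunit forms the peptide bonds and passes the new chain to the inner membrane. Skeletal muscle depends on this machinery for its oxidative capacity, and inherited defects in several of these proteins cause cardiomyopathy or multisystem disease.

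The symbols do not match the assembled particle in every case. MRPS18A and MRPS30 are found in the large subunit, whereas MRPS18B and MRPS18C, the paralogs of MRPS18A, are found in the small subunit. MRPS36 is now known as a subunit of the α-ketoglutarate dehydrogenase complex rather than of the ribosome. The comparison of the subunits was therefore also made with *Mrps18a* and *Mrps30* counted as large and *Mrps36* left out.

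The 78 genes lie on 17 chromosomes, and 6 of them share chromosome 7 with *Mybpc2*. *Mrps12* is the nearest of these, 15.8 Mb away, followed by *Mrpl46* and *Mrps11*, both 34.3 Mb away. Starts of genes in this family are often close to the start of a neighbour on the other strand. By GENCODE, 23 of the 78 genes (29.5%) have a protein-coding neighbour whose start lies within 1000 bases in the opposite orientation, compared with 1443 of the 12354 tested genes found in GENCODE (11.7%). RefSeq promoter windows of GRCm38.p6, 250 bases before to 50 bases after the start, were found for 69 of the 78 genes. Each window was searched on both strands for 3 motifs that are common in promoters of housekeeping and mitochondrial genes, given here by their letters. The NRF1 core GCATGCGC was present for 8 genes (11.6%, against 5.80% of the 9992 tested genes with a window), the ETS core CCGGAAGT for 12 (17.4%, against 8.85%) and the YY1 core AAGATGGC for 12 (17.4%, against 5.21%). At least 1 of the 3 was found for 29 of the 69 genes (42.0%) and for 18.4% of the tested genes, which is a description of letters and not of binding. The CCAAT box, counted in the same way, was found for 27 genes (39.1%, against 42.7%).

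Promoter sequence is shown for 2 genes. These are *Mrps12*, which had the smallest unadjusted p of the family in the genotype comparison but was not called after adjustment, and *Mrpl42*, the gene with the highest level per length. The first stretch, chr7:28741822-28741956, lies within the gap between the GENCODE starts of *Mrps12* and *Sars2* and does not cover all of it. The second is the stretch before the start of *Mrpl42*, chr10:95501950-95502199. Both are from RefSeq on the minus strand of GRCm38.p6, with CCAAT boxes of either strand in capitals.
*Mrps12*: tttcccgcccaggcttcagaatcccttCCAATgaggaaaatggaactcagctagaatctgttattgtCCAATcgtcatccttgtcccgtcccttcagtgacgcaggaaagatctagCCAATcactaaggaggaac
*Mrpl42*: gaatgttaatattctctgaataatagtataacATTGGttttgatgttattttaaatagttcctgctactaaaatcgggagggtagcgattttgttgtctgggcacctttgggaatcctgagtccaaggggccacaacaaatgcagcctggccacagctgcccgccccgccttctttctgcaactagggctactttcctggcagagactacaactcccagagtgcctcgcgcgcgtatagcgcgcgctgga
The 135 bases next to *Mrps12* hold the CCAAT box 3 times on the strand shown. The YY1 cores that were counted for *Mrps12* and *Mrpl42* lie outside the printed stretches.

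To compare levels between genes, the authors' TPM values were used, which are per transcript length. Averaged over the 8 mice, the genes spanned a 152-fold range of TPM. In the large subunit, *Mrpl42* had 766 ± 113 TPM (SD, n = 8 mice), followed by *Mrpl23* with 265 ± 20.2, *Mrpl30* with 262 ± 36.7, *Mrpl12* with 202 ± 28.8 and *Mrpl54* with 177 ± 18.3. *Mrpl42* was thus well above the next gene in every mouse, with 594 TPM in its lowest mouse, whereas *Mrpl23* and *Mrpl30* were within their spread of each other. MRPL12 belongs to the stalk that recruits translation factors and is also known to bind the mitochondrial RNA polymerase. Among the genes with an *Mrps* symbol, *Mrps21* had 340 ± 17.4 TPM, followed by *Mrps24* with 140 ± 18.5 and *Mrps18a* with 136 ± 7.98. Next were *Mrps15* with 125 ± 10.98 and *Mrps36* with 113 ± 16.4. Above 100 TPM were 14 genes with an *Mrpl* symbol and 5 with an *Mrps* symbol.

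At the lower end, *Mrpl19* had 5.03 ± 1.15 TPM, *Mrpl17* 9.90 ± 0.76 and *Mrpl41* 11.2 ± 2.00, and in the small subunit *Mrps25* had 5.82 ± 0.90, *Mrps22* 18.7 ± 1.88 and *Mrps6* 19.6 ± 2.80. The median gene of both subunits was alike, with 48.7 TPM for the large and 51.8 TPM for the small subunit. *Mrpl17* illustrates how length enters these values, since its mean of 36.4 CPM, counts scaled to library size and not to length, is above the median of 27.8 CPM of the large subunit. The longest GENCODE transcript of *Mrpl17* has 7300 bases, against a median of 1866.5 bases in the family and 3471 bases among the tested genes. For *Mrpl41*, the table gives the interval 24953389 to 24975913, whereas GENCODE places it from 24974117 to 24975098, with a longest transcript of 776 bases. Its mean of 14.6 CPM is below the median of the large subunit as well. Whether the wider interval entered its TPM was not tested. The transcript lengths behind the authors' TPM are not given in the sources used here.

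**Figure D1:**
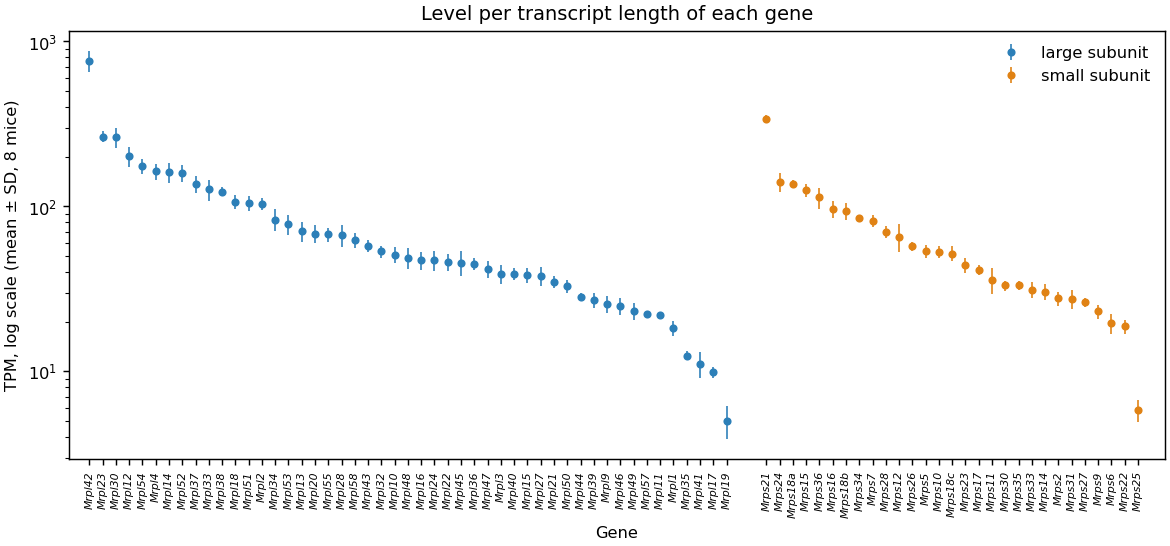
Level of each of the 78 genes in TPM on a log scale, as mean and SD over the 8 mice, with large subunit genes in blue and small subunit genes in orange, each sorted from high to low. *Mrpl42* at 766 TPM and *Mrps21* at 340 TPM stand above the rest of their subunit, and *Mrpl19* and *Mrps25* lie lowest at 5.03 and 5.82 TPM.

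The label of each library was checked with *Mybpc2*, whose level was between 4964 and 7392 CPM in WT and between 3.85 and 38.3 CPM in C2-/-, without overlap (log2 fold change −8.82, standard error 0.94, edgeR, adjusted p = 0.0075). Libraries held between 25425993 and 29747692 counts. The fast fibre markers summed to between 208188 and 277557 CPM per mouse, and none of the marker genes looked at was at 0 in all mice. All 8 mice are separate animals, and fewer cells of a type cannot be told apart from less RNA per cell in whole muscle.

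To ask whether loss of *Mybpc2* was accompanied by a different expression of the mitochondrial ribosome, each gene was compared between the genotypes with edgeR's quasi-likelihood test and Benjamini-Hochberg adjustment over all 12542 tested genes. None of the 78 genes reached an adjusted p under 0.05 (0 of 78), where 4 of all tested genes (0.0319%) did, and limma-voom and DESeq2 also called 0 of the 78. At an unadjusted p under 0.05, 1 gene was higher in C2-/-, *Mrps12*, and 1 was lower, *Mrpl15*. This is 1 of 78 in each direction, beside 3.38% of all tested genes higher and 1.91% lower. With counts this small, the family cannot be told apart from all genes in these shares, and the difference was not tested. Separate ranges of CPM in the genotypes were found for 1 gene with higher levels in C2-/-, *Mrps12* (2.03% of all tested genes), and for 2 with lower levels, *Mrpl15* and *Mrps5* (1.36% of all tested genes).

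The differences were also bounded in size. No gene of the family was past 1.5-fold in either direction, and the greatest absolute log2 fold change was 0.41, in *Mrps12*. The 95% interval of the log2 fold change lay wholly within 1.5-fold for 74 of the 78 genes (94.9%). Among the 7192 tested genes within the family's range of mean level, from 7.66 to 262 CPM, this held for 74.1%, and among all tested genes for 53.0%. The exceptions were *Mrps12*, *Mrpl15*, *Mrps11* and *Mrpl41*. Standard errors were between 0.11 and 0.21, with a median of 0.13 for both subunits, while genes in the same range of levels had a median of 0.15. Variation between mice was low as well, with a median coefficient of variation of 11.4% over the 8 mice, from 6.19% in *Mrps27* to 20.7% in *Mrpl19*, compared with 14.6% for genes in the same range of levels.

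**Figure D2:**
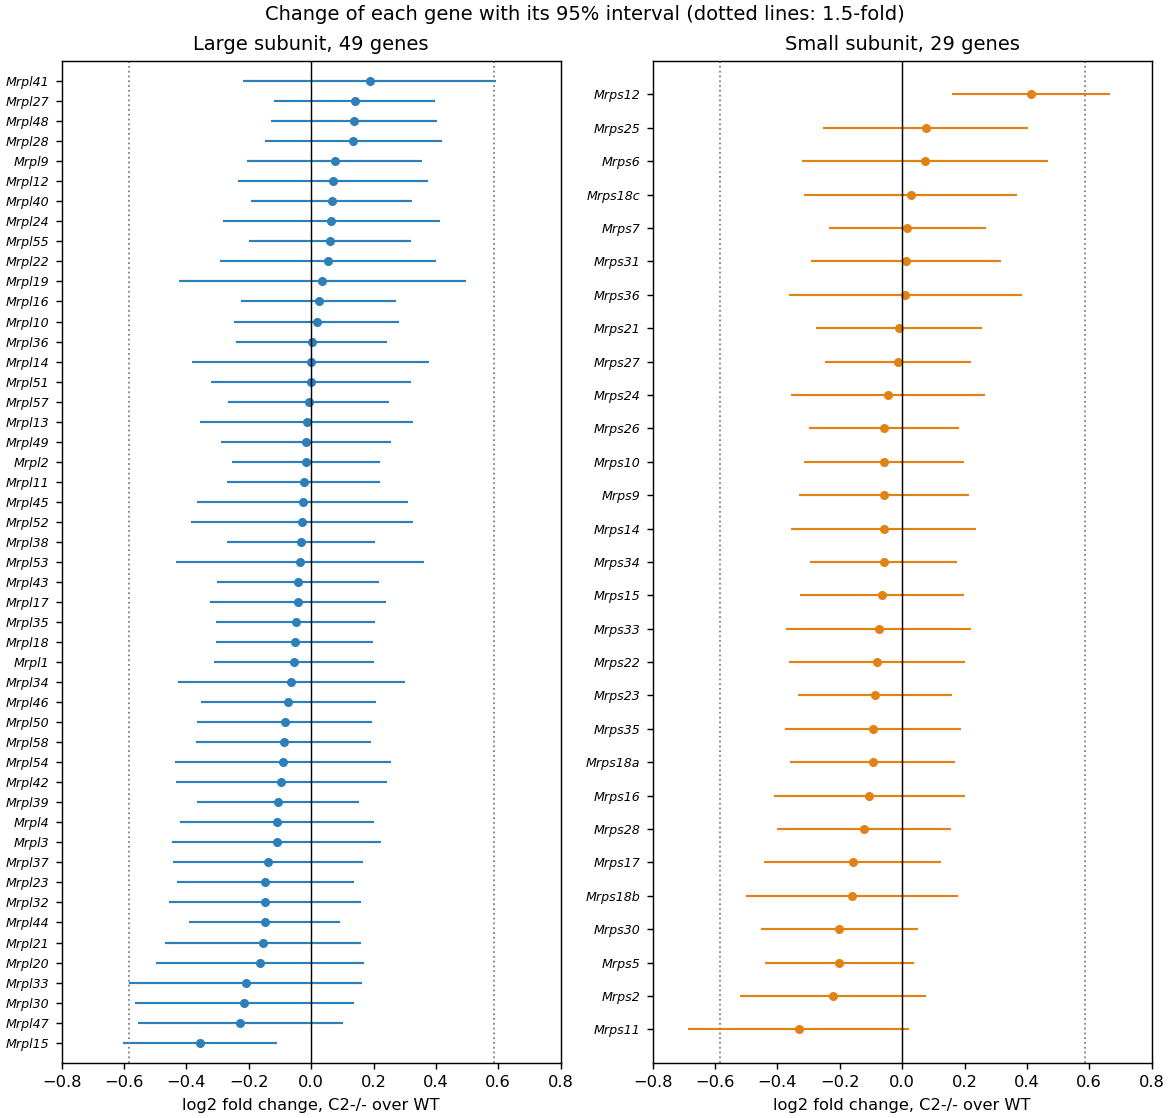
Log2 fold change of C2-/- over WT for each gene, with its 95% interval from the edgeR fit, for the 49 large subunit genes (left) and the 29 small subunit genes (right). Dotted lines mark 1.5-fold, which the intervals of 4 genes cross, and the intervals of *Mrps12* and *Mrpl15* do not include 0.

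*Mrps12* encodes a protein of the decoding centre of the small subunit and lies on chromosome 7. Its level was 21.0, 20.0, 16.8 and 18.6 CPM in WT mice 1 to 4, and 26.4, 27.6, 23.7 and 24.1 CPM in C2-/- mice 1 to 4. Each C2-/- mouse was thus above each WT mouse, with means of 19.1 ± 1.81 (SD, n = 4) and 25.4 ± 1.88 CPM. The log2 fold change was 0.41 (standard error 0.11, 95% interval 0.16 to 0.67, edgeR, unadjusted p = 0.0044, adjusted p = 0.63). Across the alternative fits of *Mrps12* alone, its log2 fold change was between 0.36 and 0.47, and its adjusted p lay between 0.175 with DESeq2 and 0.9996 when a mouse was left out. The authors' TPM separated the genotypes too, with at most 59.5 in WT and at least 70.4 in C2-/-.

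The neighbour of *Mrps12* showed values in the other direction. *Sars2*, which encodes the mitochondrial seryl-tRNA synthetase, starts on the opposite strand. The table gives *Mrps12* the interval 28739641 to 28742178 on the plus strand, which shares 211 bases with the interval of *Sars2*, from 28741968 to 28753879 on the plus strand. GENCODE, by contrast, places *Mrps12* on the minus strand, ending at 28741820, with 171 bases between it and *Sars2*. *Sars2* had 26.5, 26.8, 24.9 and 26.8 CPM in WT and 24.0, 18.4, 22.0 and 21.5 CPM in C2-/-, again without overlap (log2 fold change −0.29, standard error 0.11, edgeR, unadjusted p = 0.026, adjusted p = 0.882). With the counts of both genes summed, the genotypes overlapped, with 41.7 to 47.4 CPM in WT and 45.6 to 50.4 CPM in C2-/- (log2 fold change 0.05, standard error 0.10, unadjusted p = 0.637 from edgeR). *Mrps12* held 40.3% to 44.2% of this sum in WT and 51.9% to 60.0% in C2-/-. The sum was taken after the opposite changes of both genes were seen. Its small change and the separate shares follow from them and do not test how reads were divided. Whether reads near the paired starts were divided between the genes in the same way in each library was not tested, and the counts of *Mrps12* are uncertain to that extent.

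*Mrpl15*, a protein of the core of the large subunit, lies on chromosome 1 from 4773198 to 4785749. Its level was 98.7, 112, 86.4 and 92.8 CPM in WT mice 1 to 4, and 79.3, 70.2, 77.5 and 77.3 CPM in C2-/- mice 1 to 4. All C2-/- mice were below all WT mice, with means of 97.4 ± 10.8 and 76.1 ± 4.02 CPM (SD, n = 4). Here the log2 fold change was −0.36 (standard error 0.11, 95% interval −0.60 to −0.11, edgeR, unadjusted p = 0.0093, adjusted p = 0.742). *Mrpl15* is among the 10 genes of the family with counts that are not whole in at least 1 mouse, and its TPM did not overlap between the genotypes either, with at least 39.5 in WT and at most 36.2 in C2-/-.

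*Mrps5*, whose product lines the path by which mRNA enters the small subunit, did not overlap between the genotypes in CPM. It had 41.1, 45.6, 43.1 and 43.4 CPM in WT and 38.7, 39.5, 40.0 and 32.5 CPM in C2-/-. The gap between the genotypes was small, between 41.1 and 40.0 CPM, and the comparison did not pass the test (log2 fold change −0.20, standard error 0.11, edgeR, unadjusted p = 0.0894, adjusted p = 0.968). In TPM the ranges overlapped, since WT mouse 1 had 52.6 and C2-/- mouse 2 had 56.0.

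*Mrps11*, which shares exonic sequence at its start with *Mrpl46* on the other strand, had 27.1, 20.3, 20.6 and 18.3 CPM in WT and 20.9, 17.0, 16.6 and 14.2 CPM in C2-/-. The ranges overlapped, with C2-/- mouse 1 above 3 of the 4 WT mice (log2 fold change −0.33, standard error 0.16, edgeR, unadjusted p = 0.0638, adjusted p = 0.968). For *Mrpl46* itself the log2 fold change was −0.07 ± 0.13 (standard error).

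**Figure D3:**
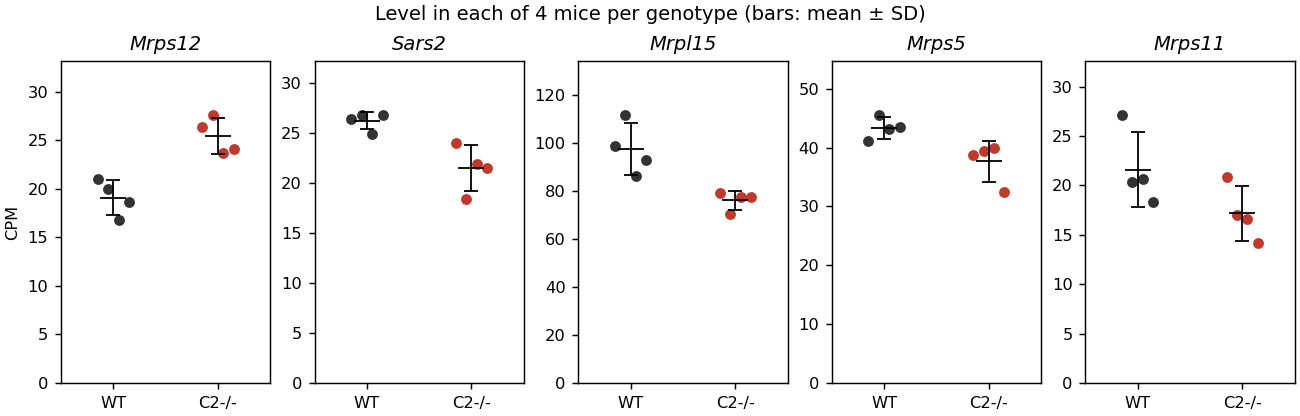
CPM in each of the 4 WT and 4 C2-/- mice for *Mrps12*, *Sars2*, *Mrpl15*, *Mrps5* and *Mrps11*, with mean and SD as bars and all axes starting at 0. *Mrps12* was at or below 21.0 CPM in WT and at or above 23.7 CPM in C2-/-, *Sars2*, *Mrpl15* and *Mrps5* were lower in every C2-/- mouse than in every WT mouse, and *Mrps11* overlapped.

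Of the remaining genes with the smallest p in each subunit and direction, none had an unadjusted p under 0.05. In the large subunit these were *Mrpl47* (log2 fold change −0.23 ± 0.15, standard error) and *Mrpl44* (−0.15 ± 0.11) on the lower side. On the higher side they were *Mrpl27* (0.14 ± 0.12), *Mrpl48* (0.14 ± 0.12) and *Mrpl28* (0.14 ± 0.13). MRPL27 reaches toward the site of peptide bond formation, and MRPL44 carries a fold of the RNase III type. Among the genes with an *Mrps* symbol, *Mrps30* had −0.20 ± 0.11 on the lower side. On the higher side, *Mrps25* (0.07 ± 0.15) and *Mrps6* (0.07 ± 0.18) stood next to *Mrps12*.

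The paralogs *Mrps18a*, *Mrps18b* and *Mrps18c*, whose products sit at different sites of the particle, had 136 ± 7.98, 93.4 ± 11.2 and 51.8 ± 5.39 TPM over the 8 mice. Their log2 fold changes were −0.09 (95% interval −0.36 to 0.17), −0.16 (−0.50 to 0.18) and 0.03 (−0.31 to 0.37). *Mrpl12* had 0.07 (−0.24 to 0.38), with 81.9 to 110 CPM in WT and 88.1 to 117 CPM in C2-/-. *Mrps36* had 0.01 (−0.36 to 0.38), with 32.0 to 51.6 CPM in WT and 32.9 to 45.1 CPM in C2-/-. The ranges of the genotypes overlapped for all 5 genes, and each interval includes 0.

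Most genes of the family lay slightly below 0, as did the transcriptome as a whole. The median log2 fold change was −0.05 over the 78 genes, with 57 below and 21 above 0, beside a median of −0.02 over all tested genes, with 6804 below and 5738 above. This balance depended on the scaling, since with library size alone 39 genes were below and 39 above 0, with a median that rounds to 0.00. Single mice moved it too, with 36, 32 and 33 genes above 0 without WT mouse 1, C2-/- mouse 2 and C2-/- mouse 4, and 13 and 12 without C2-/- mice 1 and 3. By subunit, the median was −0.04 for the large subunit, with 35 of 49 genes below 0, and −0.06 for the small subunit, with 22 of 29 below 0. With library size alone these became 0.02 and −0.01, so the direction for the large subunit turned, while the median over all genes moved to 0.04.

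The family's level varied from mouse to mouse within both genotypes. The genes were centred on their own mean over the 8 mice on the log2 CPM scale, and the median over the family was 0.16, 0.09, 0.00 and −0.09 in WT mice 1 to 4 and 0.12, −0.11, 0.05 and −0.15 in C2-/- mice 1 to 4. WT mouse 1 was above the gene's own mean for 69 of the 78 genes and C2-/- mouse 1 for 65, compared with 11 each in C2-/- mice 2 and 4 and 14 in WT mouse 4. C2-/- mouse 4 had the lowest level of all mice for 32 genes and C2-/- mouse 2 for 18, while WT mice 1 and 2 had the highest for 26 and 22 and C2-/- mouse 1 for 16. High and low mice were thus found in both genotypes, and in both subunits WT mouse 1 had the highest and C2-/- mouse 4 the lowest median. The mean of these medians was 0.04 ± 0.11 in WT and −0.02 ± 0.13 in C2-/- (SD, n = 4), a difference below the spread between mice.

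**Figure D4:**
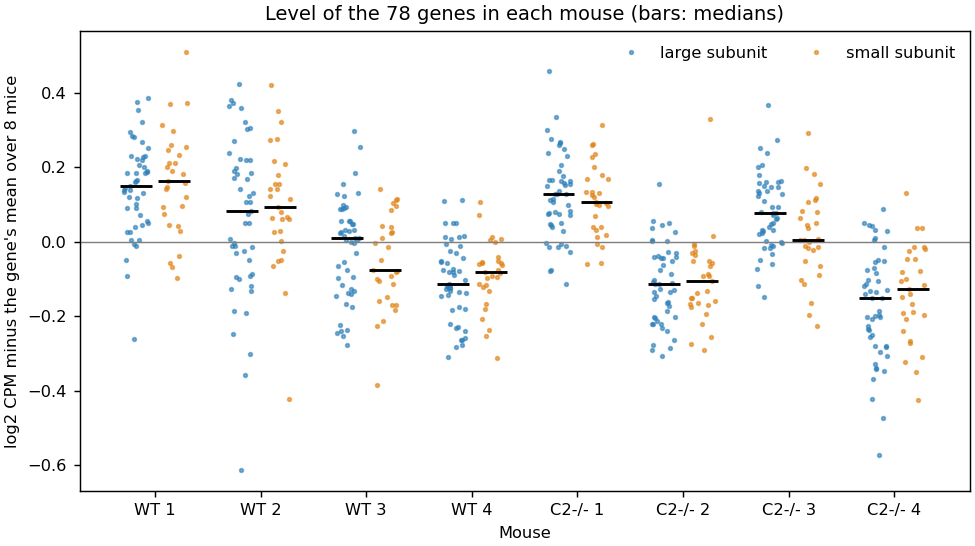
Log2 CPM of each gene minus its mean over the 8 mice, by mouse, with large subunit genes in blue, small subunit genes in orange and medians as black bars. Medians of both subunits lie above 0 in WT mice 1 and 2 and C2-/- mouse 1 and below 0 in WT mouse 4 and C2-/- mice 2 and 4.

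The levels of other gene groups in the same mice are given beside these values. The cytosolic ribosomal proteins, centred in the same way, had medians of 0.11, 0.50, −0.24 and −0.04 in WT mice 1 to 4 and 0.07, −0.09, 0.03 and −0.31 in C2-/- mice 1 to 4. Their medians thus lay on the same side of 0 as those of the family in each mouse, also in WT mouse 3, where the family was close to 0. Immediate early genes, which respond to stress and to handling of tissue, summed to 1565 CPM in WT mouse 4, 1015 in C2-/- mouse 2 and 770 in WT mouse 2, and to between 148 and 192 CPM in the others. Of the mice with low levels of the family, WT mouse 4 and C2-/- mouse 2 thus had high immediate early genes and C2-/- mouse 4 did not. Tendon markers summed to 262 and 273 CPM in C2-/- mice 2 and 4, and to between 59.6 and 196 CPM in the others. Markers of slow or oxidative muscle summed to 3357 CPM in WT mouse 4 and to 3385 and 3724 CPM in C2-/- mice 2 and 4. In the others they summed to between 3856 and 6505 CPM. Their centred median, however, was above 0 in WT mouse 4, at 0.46, and below 0 in C2-/- mice 2 and 4, at −0.85 and −0.27. The part of any of these in the levels of the ribosomal protein genes was not tested.

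Summed over genes, the large subunit had 2420, 2240, 2139 and 1994 CPM in WT and 2370, 1930, 2221 and 1877 CPM in C2-/-. The small subunit had 1015, 984, 869 and 854 CPM in WT and 970, 843, 916 and 829 CPM in C2-/-. For both subunits the genotypes overlapped over most of their range, with means of 2198 ± 179 and 2099 ± 235 CPM for the large and 931 ± 81.1 and 889 ± 65.8 CPM for the small subunit (SD, n = 4). The whole family made up between 0.271% and 0.343% of the scaled counts of a mouse.

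The balance of the subunits was then taken within each library, where the scaling cancels out. The ratio of large to small was 2.38, 2.28, 2.46 and 2.34 in WT and 2.44, 2.29, 2.42 and 2.27 in C2-/-. The mean ratio was 2.36 ± 0.08 in WT and 2.36 ± 0.09 in C2-/- (SD, n = 4), a log2 difference of −0.01 that is far below the spread between mice. With *Mrps18a* and *Mrps30* counted as large and *Mrps36* left out, the ratio was 2.87 ± 0.07 in WT and 2.85 ± 0.10 in C2-/-. From the authors' TPM it was 2.20 ± 0.08 and 2.16 ± 0.12. Since each of these sums is led by its most abundant genes, the ratio of geometric mean CPM per gene was taken as well, which was 1.24 ± 0.03 in WT and 1.25 ± 0.04 in C2-/-.

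**Figure D5:**
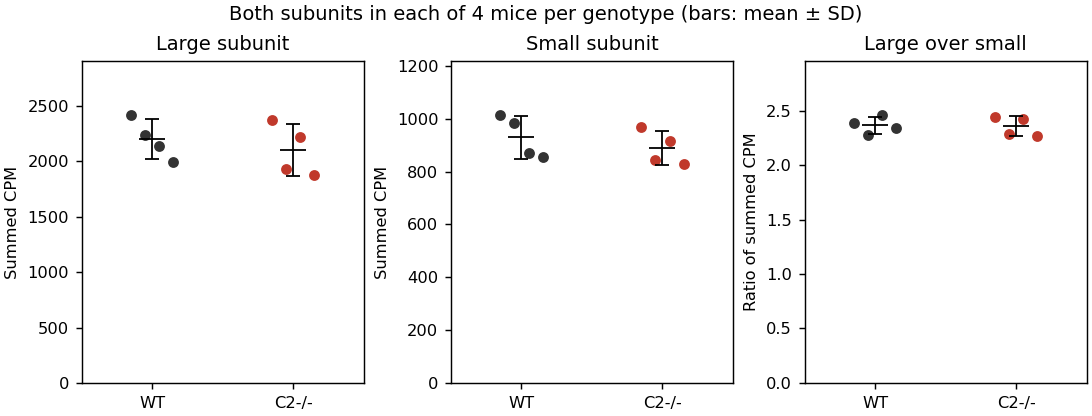
Summed CPM of the large and the small subunit genes and their ratio in each of the 4 WT and 4 C2-/- mice, with mean and SD as bars and axes starting at 0. The ratio stays between 2.27 and 2.46 in all 8 mice, and the genotypes overlap in each panel.

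Other genes of mitochondrial translation were summarised from lists. Of the 5 mitochondrial ribosomal proteins with other names (such as *Dap3*), all tested, 0 had an unadjusted p under 0.05, and their median log2 fold change was −0.01. *Chchd1* had −0.21 ± 0.18 (standard error) and *Dap3* −0.10 ± 0.10. Of 25 factors for assembly of the mitochondrial ribosome, 0 passed at an unadjusted p under 0.05 (median −0.02), with *Rbfa*, a maturation factor of the small subunit, at 0.21 ± 0.10 and *Mterf3* at −0.27 ± 0.15. CPM of *Rbfa* were 20.6 to 24.1 in WT and 24.9 to 26.8 in C2-/-, without overlap, and those of *Mterf3* were 9.85 to 14.2 and 8.91 to 9.65, also without overlap. They were the 1 higher and the 1 lower gene without overlap among the 25, beside 2.03% and 1.36% of all tested genes. The gap of *Mterf3* was small, between 9.85 and 9.65 CPM, and its highest level was 14.2 CPM in WT mouse 2.

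Of the 16 tested translation factors of the mitochondria, 0 passed at an unadjusted p under 0.05 (median −0.05), with *Oxa1l*, the insertase of the inner membrane, at −0.18 ± 0.12 and *Tufm*, the elongation factor, at −0.16 ± 0.12. Of 20 mitochondrial tRNA synthetases, 1 had an unadjusted p under 0.05, *Sars2*, and the median was −0.01, with *Aars2* at 0.15 ± 0.12. Of 10 genes for copying and transcription of mitochondrial DNA, 0 passed (median −0.05), with *Mterf2* at −0.14 ± 0.21 and *Polg* at −0.08 ± 0.13. After adjustment, 0 genes of these lists had a p under 0.05 in edgeR. The table holds 0 genes of the mitochondrial genome, so the mRNAs that this ribosome translates and its ribosomal RNAs were not analysed here.

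The cytosolic ribosomal proteins, which build the ribosome of the cytosol, were set beside the family. Of the 85 that were tested, 81 had a log2 fold change below 0, with a median of −0.19, but 0 had an adjusted p and 1 an unadjusted p under 0.05. That gene, *Rpl29*, had 124, 128 and 118 CPM in C2-/- mice 1, 2 and 4, whereas C2-/- mouse 3 with 3.48 CPM lay within the WT range of 1.81 to 6.35 CPM (adjusted p = 0.31 from edgeR). Summed levels of the cytosolic genes were 14877, 19068, 11813 and 13442 CPM in WT and 14456, 12905, 13809 and 11457 CPM in C2-/-. WT mouse 2 was thus highest for the cytosolic genes by a wide margin, and without it their median was −0.02. Without the same mouse the median of the mitochondrial ribosomal proteins was −0.03. The difference between the families was not tested.

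Among markers of the cell types in muscle, genes of slow or oxidative muscle, a list that includes *Myh2* and *Mb*, had a median log2 fold change of −0.29. At an unadjusted p under 0.05 were 2 of 8, both lower, *Myl2* (−1.66 ± 0.45, standard error) and *Myh7* (−2.47 ± 0.999). Over all tested genes, 1.91% were lower and 3.38% higher at this threshold. *Myh7* was at 20.9 CPM in WT mouse 4, against 0.365 to 2.62 CPM in the other WT mice and 0.446 to 1.85 CPM in C2-/-. *Myl2* was low in all mice, with 1.34 to 4.13 CPM in WT, highest in WT mouse 4, and 0.372 to 0.971 CPM in C2-/-. Summed levels of the slow or oxidative muscle genes were 3357 to 6505 CPM in WT and 3385 to 5695 CPM in C2-/-, and are not a measure of slow fibres alone. Tendon markers had a median of 1.11 over the 7 of 9 that were tested, with 1 at an unadjusted p under 0.05, *Tnmd* (1.43 ± 0.55). The fast fibre, endothelial, macrophage, adipocyte and Schwann cell markers had medians of −0.07, −0.03, 0.40, 0.75 and −0.30, and the 8 immediate early genes −0.97, each with 0 genes at an unadjusted p under 0.05. After adjustment, 0 of these markers had a p under 0.05 in edgeR.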

How the data were processed

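RNA of the TA muscle was sequenced in 4 WT and 4 C2-/- mice, after selection of poly(A) RNA, with 1 library per mouse. The authors aligned reads to GRCm38.p6 with HISAT and deposited expected counts per gene without normalization, along with TPM values per gene. The study's methods name featureCounts for counting, whereas the submitters' processing notes list HISAT, Bowtie2 and DESeq2. Between 5.50% and 6.53% of the counts of a mouse are not whole. Counts were rounded and scaled with TMM factors, which lay between 0.929 and 1.03. A total of 12542 genes passed edgeR's default filter and were tested with the quasi-likelihood F test (edgeR 4.0.16, R 4.3.3) with Benjamini-Hochberg adjustment. Standard errors were derived from the fold change and F. The 8 FPKM columns and the authors' own fold changes, p-values and q-values were not used. Totals lay between 25425993 and 29747692 counts.

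The members and lists were chosen with earlier results of these data known. Named genes are those with an unadjusted p under 0.05 and the 3 with the smallest p per subunit and direction. The 5 highest and 3 lowest in TPM per subunit and those whose genotypes do not overlap were named as well. So were *Mrps18a*, *Mrps18b*, *Mrps18c*, *Mrps30*, *Mrps36*, *Mrpl12*, *Mybpc2*, and the 2 with the smallest p in other lists. From those lists, marker, immediate early and cytosolic ribosomal genes without an unadjusted p under 0.05 were left out of the text. *Mrps27*, *Mrpl46* and the neighbours of members were named after their values were seen. Medians and sums are descriptions with no test. Levels by mouse are log2 of CPM with 0.1 added. Neighbours, exons and transcript lengths came from GENCODE vM21, and near-identical copies were searched with blastn. Alternatives were RLE factors, library size only, other filters (1 count in total, 10 counts in every mouse), limma-voom 3.58.1 without and with quality weights, DESeq2 1.42.0, the replicate number as a block, other ways to take the subunit ratio, and leaving out each mouse. The sum of *Mrps12* and *Sars2* was added after seeing the data. Replicate numbers are shared between the genotypes, but the mice are different animals. The edgeR fit was checked on simulated data with planted changes larger than any in the family. Smaller changes and the coverage of the 95% intervals were not checked in this way. Tables were handled in Python 3.11.15 with pandas 2.3.3 and scipy 1.17.1.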

Additional observations from a re-analysis of the deposited data

Results flagged for a closer look

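A single mouse stood apart from the other 3 of its genotype in 4 of the 44 groups of 4 mice that were checked, where chance alone gives about 1 group in 20. *Mrpl44* was at 25.5 CPM in WT mouse 2 and at 21.2 CPM in each of the other WT mice. *Mrps18c* was at 15.2 CPM in C2-/- mouse 1, against 11.4 to 11.8 CPM in the other C2-/- mice. In the same mouse *Mrps25* was at 22.4 CPM, against 18.4 to 19.1 CPM. *Mybpc2* was at 38.3 CPM in C2-/- mouse 3, against 3.85 to 4.35 CPM in the other C2-/- mice, which is still below every WT mouse. The sums of both subunits and their ratio had no such mouse in either genotype.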

How the results depend on the processing

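Under all 16 alternatives, 0 members had an adjusted p under 0.05, and *Mrps12* stayed the 1 member with higher levels at an unadjusted p under 0.05. Over all genes, the adjusted count of 4 became 39 with DESeq2 and 4 to 7 when a mouse was left out, 7 without WT mouse 2. The count of members lower at an unadjusted p under 0.05 was 2 with the replicate block and 1 to 2 when a mouse was left out, 2 without WT mouse 4 or C2-/- mouse 1, and the added gene was *Mrps11*. The block changed no other call, and correlations of deviations between same-numbered mice were 0.267, 0.042, −0.051 and 0.021, so the numbers were not taken to pair mice. Members without overlap numbered 3 to 6 when a mouse was left out, 6 (7.69%) without C2-/- mouse 1, where the share over all tested genes was 5.91%, against 3.38% with all mice. The sign with each mouse left out was followed for the 19 named genes, of which 6 with values near 0 turned in 11 fits, with log2 fold changes from −0.0098 to 0.148 in *Mrpl12* (lowest without C2-/- mouse 1), −0.134 to 0.0127 in *Mrps18a* (highest without WT mouse 2), −0.0778 to 0.114 in *Mrps18c* (lowest without C2-/- mouse 1), −0.031 to 0.163 in *Mrps25* (lowest without WT mouse 2), −0.0726 to 0.153 in *Mrps36* (lowest without WT mouse 4) and −0.0177 to 0.17 in *Mrps6* (lowest without C2-/- mouse 3). The cause was not tested. The medians of the family and of both subunits and the subunit ratio moved by less than the spread between mice under all alternatives, with −0.09 to 0.00 for the family and −0.03 to 0.02 for the log2 ratio. With 4 mice per genotype, the size of a difference is known only to within the 95% interval of each gene.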

Other observations

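Of the 23 members with a start close to that of a neighbour on the other strand, 20 have a neighbour that was tested. For 3 of these the neighbour had an unadjusted p under 0.05, all lower in C2-/-. Over all tested genes, 1.91% were lower and 3.38% higher at this threshold, and the count of 3 was not tested against these shares. The 3 neighbours were *Sars2* beside *Mrps12*, *Zfp189* beside *Mrpl50* (log2 fold change −0.73, standard error 0.28, edgeR, unadjusted p = 0.0236, adjusted p = 0.857) and *Ppp1r10* beside *Mrps18b* (−0.52, standard error 0.20, edgeR, unadjusted p = 0.0274, adjusted p = 0.882). The level of *Zfp189* was low, between 1.70 and 5.22 CPM in all mice. *Mrpl50* and *Mrps18b* themselves had −0.09 and −0.16. Member and neighbour had the same sign in 12 of the 20 pairs.

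A minimum of 98% identity across 300 or more bases gave processed pseudogenes for 10 members (*Mrpl23*, *Mrpl27*, *Mrpl48*, *Mrpl51*, *Mrps5*, *Mrps10*, *Mrps18b*, *Mrps25*, *Mrps33* and *Mrps36*), and none of the copies is annotated as protein-coding. Exons of 33 members overlap an exon of another GENCODE gene on either strand. The sources used here do not state that counting used the strand, and the counts of these members are uncertain to that extent. The strand given in the table differs from GENCODE for 5 members, *Mrpl48*, *Mrps12*, *Mrps22*, *Mrps24* and *Mrps28*.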
